A study of Mus musculus with 16 samples.

Results

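The SoxE genes Sox8, Sox9 and Sox10 and the SoxD genes Sox5 and Sox6 were followed by symbol through the normalised expression tables of mouse embryos with and without miR-302. They are 5 of the 24421 genes listed at each stage, and all 5 had a row in each of the 3 tables. The series compared wild-type (WT) embryos with miR-302 knockout (KO) embryos, all of strain C57BL/6, at 3 stages of embryonic development. At embryonic day 7.5 (E7.5) the material was the whole embryo, with 2 WT and 2 KO libraries. At E8.5 it was cells sorted by flow cytometry as Wnt1-Cre+, which the labels describe as crest before and after migration, with 3 WT and 4 KO libraries. At E9.5 it was cells sorted as Sox10+, described as post-migratory crest, with 2 WT and 2 KO libraries. Wnt1-Cre is expressed in the dorsal neural tube and so marks cells of that tube beside the crest that leaves it. The sources used here do not give the allele removed in the knockout, the reporter behind the Wnt1-Cre sort or the means by which Sox10 was detected. Since the labels tie no library to an animal or litter, the p-values below measure only the spread between these samples, which may be technical. A further E8.5 KO library, titled KO4_5s, was not analysed here, and the E8.5 library called WT1 below is titled WT1_5s.

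SoxE proteins are transcription factors with a shared DNA-binding HMG domain that act in sequence and in part redundantly in the neural crest. Sox9 is switched on as crest forms at the border of the neural tube and later drives cartilage formation. Sox10 is kept in migrating crest and in the glial, melanocyte and enteric lineages, where it activates genes such as Erbb3 and Ret, and Sox8 overlaps with both. The SoxD proteins Sox5 and Sox6 carry no activation domain of their own. They bind as dimers beside SoxE proteins, and help Sox9 in cartilage while modulating Sox10 in glia and melanocytes.

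The miR-302 cluster encodes microRNAs that pair through their seed, bases 2 to 8 of the mature strand, with sites in 3′UTRs. The mature sequences available from RefSeq (GRCm38.p6) are shown because the seed defines the sites searched for in the 5 genes. Capitals mark the seed, and the last line is miR-367, which shares the primary transcript and has an unrelated seed. miR-302b-3p and miR-302d-3p share 1 seed, and the annotated miR-302c-3p starts so that its seed is shifted by 1 base. miR-302a-3p is named only.
miR-302b-3p: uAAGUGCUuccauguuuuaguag
miR-302d-3p: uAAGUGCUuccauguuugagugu
miR-302c-3p: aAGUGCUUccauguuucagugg
miR-367-3p: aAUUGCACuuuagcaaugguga

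Sox5 and Sox6 each held a match to the seed of miR-302b-3p and miR-302d-3p in the longest annotated 3′UTR, and none of the SoxE genes did. The shifted seed of miR-302c-3p was not searched for. The motifs were searched on the transcript strand: AGCACTT, AGCACTTA and GCACTTA for miR-302, and GTGCAAT, GTGCAATA and TGCAATA for miR-367, each longer motif containing the shorter ones. A match is a description of letters and not a measured binding site. Over all 20921 genes with a 3′UTR, 2.98% held the 8mer and 17.8% any of the miR-302 motifs. The 3′UTRs searched ran to 4839 and 6046 bases in Sox5 and Sox6. They were shorter in Sox8 (1441), Sox9 (2250) and Sox10 (1030), and the shares were not matched for length. The matches are shown 5′ to 3′ on the transcript strand, with the motif in capitals, because they differ in kind between the members.
Sox5, 8mer for miR-302: ttcagctcccctggctctaaAGCACTTAgt
Sox6, 7mer for miR-302: gtagcacattaggatgtttttAGCACTTgt
Sox9, 7mer for miR-367: gagagagagaaagccttctttTGCAATAag

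The Sox5 match lies at chr6:143828899-143828928 on the minus strand (GRCm38), at base 4356 of a 3′UTR of 4839 bases. The Sox6 match lies at chr7:115471976-115472005 on the minus strand, at base 4934 of 6046. The Sox9 match to miR-367 lies at chr11:112786357-112786386 on the plus strand, at base 868 of 2250. Motifs for miR-367 occurred in 12.7% of all 3′UTRs. The genes differ widely in size. Sox5 (ENSMUSG00000041540.16, chr6:143828425-144781977, minus strand) has a longest transcript of 7243 bases and Sox6 (ENSMUSG00000051910.13, chr7:115470872-116038796, minus strand) one of 8668 bases. Sox9 (ENSMUSG00000000567.5, chr11:112782224-112787760, plus strand) has 4135 bases, Sox8 (ENSMUSG00000024176.10, chr17:25565892-25570686, minus strand) 3000 and Sox10 (ENSMUSG00000033006.10, chr15:79154908-79165240, minus strand) 2780.

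Depth ran from 4912827 to 9184436 gene-assigned reads at E7.5, from 9008784 to 13517860 at E8.5 and from 7300598 to 14861728 at E9.5. At E7.5 the precursors of miR-302a to miR-302d had 14 and 25 reads in WT1 and WT2 and 0 in both KO libraries. At E8.5 and E9.5 they had at most 1 read in any library, so those stages give no check of the genotype labels. The libraries differed in how their genes ranked by transcript length. Each library's departure from the stage mean was correlated with transcript length across genes (Spearman, a description). At E9.5 the correlation was 0.599 and 0.658 in the WT libraries and -0.474 and -0.58 in the KO libraries, so KO values were higher for short and lower for long transcripts. At E8.5 it was 0.497 in WT3 and 0.473 in KO3, 0.0313 and -0.0296 in KO1 and KO2, and -0.438, -0.374 and -0.415 in WT1, WT2 and KO4. The E9.5 code numbers of the labels were 171 in both KO and 209 in both WT libraries, so code number, length trend and genotype cannot be told apart there.

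In whole E7.5 embryos Sox9 was low and the other 4 genes were near the limit of detection. Sox9 had normalised values of 11.9 and 18.8 in WT1 and WT2 and of 12.5 and 40.1 in KO1 and KO2, from 17, 15, 9 and 50 reads. The KO2 value was the highest and KO1 lay between the WT libraries, so the groups overlapped. The log2 fold change of KO over WT was 0.56 (SE 0.74), and limma gave an adjusted p of 1. Without KO2 the change was -0.25. Sox9 was the only member with a mean value of at least 10, the minimum for the test, and 0 of 12492 tested genes (0%) passed an adjusted p of 0.05 at this stage. At an unadjusted p below 0.05 limma had 385 genes, and on the recovered reads edgeR called 0 and DESeq2 called 31 genes. Sox9 was called by none of the 3 tools. Libraries did not overlap between genotypes for 28.7% of tested genes.

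The other 4 genes had 0 to 7 reads per library at E7.5. Sox10 had 1 read in each WT library and 3 and 6 reads in KO1 and KO2. Over the pooled reads the ratio of KO to WT was 4.95, with a 95% counting interval of 1.02 to 47. Sox8 had 1 read in each WT library and 3 and 4 reads in KO1 and KO2, a ratio of 3.85 with an interval of 0.732 to 37.9. For both genes each KO library lay above each WT library, on 2 WT reads in all for each gene. Libraries did not overlap, in either direction, for 28.7% of tested genes. Sox5 had 7 and 1 reads in WT and 2 and 3 in KO, a ratio of 0.687 (interval 0.177 to 2.38). Sox6 had 1 read in each WT library and 0 in each KO library, which is under the 3 reads that a count of 0 allows, so no fold is given. The intervals cover counting error only. These reads came beside trophoblast markers summed to 1733 and 901 RPM (reads-per-million) in WT and to 4458 and 7696 RPM in KO, and their part in the Sox values was not tested.

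The authors' deposited table of genes higher in KO at E7.5 lists Sox10 with a mean of 157 and a log2 fold change of 5.39, and Sox6 with a mean of 233 and a change of 1.97. In the normalised values deposited for the same stage Sox10 averaged 2.74 and Sox6 0.49. The highest Sox6 value in any of the 15 libraries was 61.4. Over the 3369 genes of that authors' table, 0.089% had a mean within 1% of the normalised values, against 100% in each of the E8.5 and E9.5 tables. The E7.5 table of the authors was therefore not used as a KO and WT comparison of these libraries.

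In the Wnt1-Cre cells of E8.5 all 5 genes were measured above the minimum and none passed the test between genotypes. Sox10 and Sox9 were the abundant members, Sox5 was at an intermediate level, and Sox8 and Sox6 were low. Of the 5 members 0 were called, by limma, edgeR or DESeq2, and 0 had an unadjusted limma p below 0.05. The background was the same: limma called 0 of 12257 genes (0%), with 742 at an unadjusted p below 0.05, while edgeR called 0 and DESeq2 called 28. The libraries of the 2 genotypes overlapped for all 5 members, and did not overlap for 6.54% of all tested genes.

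Sox10, which maintains multipotent crest, had normalised values of 1017, 973 and 662 in WT1 to WT3 and of 704, 690, 880 and 932 in KO1 to KO4. The WT3 value was the lowest of all and every KO library lay between it and WT2. The log2 fold change was -0.13 (SE 0.22, limma adjusted p 0.95). In RPM Sox10 was the steadiest member, at 78.9 ± 5.23 in WT (SD, n = 3) and 81.7 ± 19.5 in KO (SD, n = 4).

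Sox9, which specifies crest and later drives cartilage, had values of 1116, 799 and 1362 in WT and of 845, 812, 2162 and 741 in KO1 to KO4. The KO3 library stood apart, above every other library, and the other 3 KO libraries lay below the WT median of 1116. KO over WT gave a log2 change of -0.06 (SE 0.37, limma adjusted p 0.989). KO3 and WT3, with the highest Sox9 values, were also the 2 libraries with the strongest positive length trend. KO3 had in addition the highest level of Wnt1, the gene whose driver marks the sorted cells, at 135 RPM against 30.5 to 59.7 RPM in the others. Its sclerotome and somite markers summed to 24 RPM against 5.19 to 14 RPM, and its otic markers to 102 RPM against 53 to 78.5 RPM. KO3 was also highest for migratory crest and early glia markers (374 RPM) and endoderm markers (310 RPM). It was lowest for crest mesenchyme markers (129 RPM). The part of these differences in the Sox9 value was not tested.

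Sox8, a SoxE gene with functions that overlap with those of Sox9 and Sox10, had 6.77, 18.4 and 11.7 in WT and 44.7, 9.37, 8.42 and 75.3 in KO1 to KO4. KO1 and KO4 exceeded every WT library, and KO2 and KO3 lay inside the WT range. The log2 fold change was 0.96 (SE 0.76, limma adjusted p 0.867), on 5 to 65 reads per library. The 3 libraries with the most Sox8 were the 3 with the most crest mesenchyme markers. These 10 markers summed to 352 RPM in KO4, 267 in KO1 and 245 in WT2, and to 129 to 160 RPM in the other 4 libraries. In bulk samples, more cells of a type and more RNA per cell cannot be told apart.

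The SoxD members also overlapped between genotypes. Sox5, which pairs with Sox6 beside Sox9 in cartilage, had 115, 101 and 144 in WT and 220, 194, 170 and 88.1 in KO1 to KO4. Of the KO libraries 3 lay above every WT library and KO4 below all. KO over WT gave a log2 change of 0.42 (SE 0.33, limma adjusted p 0.867). KO4 and WT2, the pair that shares code number 169, differed by -0.19 on the log2 scale. Code number 128 was held by KO1 and KO2 and by no WT library, and without these libraries the Sox5 change was 0.04 (SE 0.41). KO1 and KO2, with the highest Sox5 values, had erythroid markers summed to 1649 and 2516 RPM, against 98.2 in KO4, 1.78 in KO3 and 0.555 to 0.864 in WT, and their part in the Sox5 value was not tested. Sox6 had 28.5, 61.4 and 33.2 in WT and 58.8, 34.4, 30.7 and 18.5 in KO, a log2 fold change of -0.23 (SE 0.45, limma adjusted p 0.956). The gene with the 8mer for miR-302, Sox5, and the gene with the 7mer, Sox6, therefore had changes of opposite sign here, neither called.

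**Figure D1:**
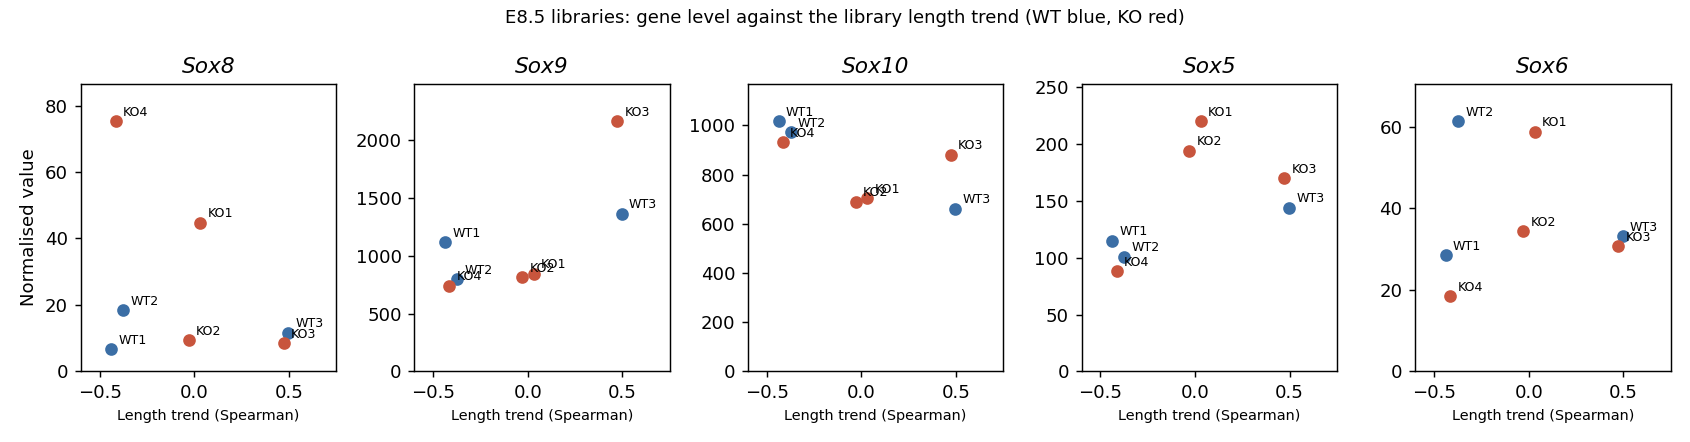
Normalised value of each gene (vertical axis, from 0) in the 7 E8.5 libraries against the Spearman correlation of that library's values with transcript length (horizontal axis), with WT in blue and KO in red. Sox9 was highest in KO3 (2162) and WT3 (1362), the libraries with the strongest positive length trend, while Sox8 was highest in KO4 (75.3) and KO1 (44.7).

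In the Sox10+ cells of E9.5 Sox9 and Sox5 were lower in KO, and Sox8 and Sox6 had lower values that did not pass the test. Sox10, the gene used for the sort, overlapped between genotypes. Of the 5 members 2 were called lower and 0 higher by limma. The background was high: 47.5% of 12000 tested genes were called, and 23% were called lower. For 4 of the 5 members both KO libraries lay below both WT libraries, as they did for 41.7% of all tested genes. Neither count sets the members apart from the other genes.

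Sox9 had normalised values of 1506 and 1359 in WT1 and WT2 and of 209 and 457 in KO1 and KO2. Both KO libraries were far below both WT libraries, and KO1 was the lower. The WT mean was 1432 ± 104 and the KO mean 333 ± 176 (SD, n = 2 libraries in both), a log2 fold change of -2.21 (SE 0.39, limma adjusted p 0.00909). The authors' deposited table gives -2.11 (SE 0.39, adjusted p 4.8e-07). With the trend over transcript length removed from each library the change was -1.39 (SE 0.51) and the adjusted p 0.107. The call was also lost, at similar changes, without WT1 (-2.13, adjusted p 0.0877) or without WT2 (-2.28, adjusted p 0.0935), where the single WT library left is assumed to vary like the KO pair.

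Sox5 had 224 and 213 in WT and 58.1 and 52.7 in KO. Replicates were close in both genotypes, and the groups were well apart. The log2 fold change was -1.96 (SE 0.34, limma adjusted p 0.00841), and the authors' deposited table gives -1.98 (SE 0.51, adjusted p 0.00055). Sox5 has a transcript of 7243 bases, and the median over 998 genes with transcripts of 6 to 8 kilobases was -1.64. With the length trend removed the Sox5 change was -0.44 (SE 0.36, adjusted p 0.395). The call was lost, at similar changes, without WT1 (-1.93, adjusted p 0.167) and without WT2 (adjusted p 0.184).

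Sox6, the other SoxD member, had 38.5 and 42.4 in WT and 16.9 and 23.8 in KO, from 14 to 84 reads per library. KO over WT gave a log2 change of -0.97 (SE 0.59, limma adjusted p 0.216). It was -1.21 without KO2 and -0.74 without KO1, fits that leave a single KO library. The median over the 671 genes with transcripts of 8 kilobases or more was -1.62, and with the length trend removed Sox6 turned to 0.54 (SE 0.62, adjusted p 0.543). Sox6 and Sox5, the members with miR-302 motifs, were thus both below WT at this stage in the values as deposited, while the Sox6 direction depended on the length trend. Sox8 and Sox9, without such motifs, were also below WT in both KO libraries, as were 41.7% of all tested genes. miR-302 precursors had 0 or 1 read in the E9.5 WT libraries. Mature microRNAs were not measured, and a part of miR-302 in these values was not tested.

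Sox8 had 259 and 236 in WT and 92.9 and 168 in KO. The groups did not overlap, and the 2 KO libraries differed from each other more than the WT libraries did. The log2 fold change was -0.98 (SE 0.38, limma adjusted p 0.0861). The change was -1.40 without KO2 and -0.55 without KO1, fits that leave a single KO library. With the length trend removed it was at -0.92 (adjusted p 0.149).

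Sox10 had 722 and 639 in WT and 511 and 1165 in KO1 and KO2. The KO libraries lay on either side of the WT pair, with KO1 below and KO2 above. KO over WT gave a log2 change of 0.18 (SE 0.41, limma adjusted p 0.724). The sign rested on the library: 0.78 without KO1 and -0.41 without KO2, fits that leave a single KO library. The cells were sorted on Sox10, and the sources used here do not say whether both genotypes were gated alike, so the transcript level is a description of the sorted cells.

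**Figure D2:**
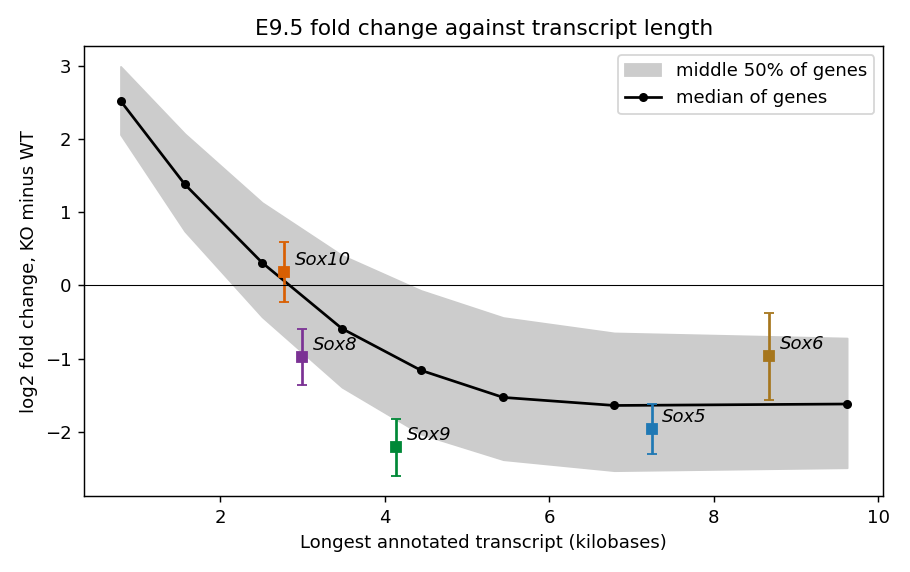
Log2 fold change of KO over WT at E9.5 (vertical axis) against the longest annotated transcript in kilobases (horizontal axis). The black line is the median and the grey band the middle 50% of tested genes in 8 length classes, drawn at each class's median length, and squares are the 5 genes with SE bars. Sox5 (-1.96) lay inside the band for its length and Sox9 (-2.21) below it.

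The scale of the values also mattered at E9.5. The deposited values summed to 7392263 and 7499920 in WT and to 13037864 and 14623235 in KO, so dividing by library totals lowers KO values relative to WT. On reads-per-million, an alternative chosen after seeing the data, the median of all genes was -1.01, against -0.14 in the deposited values. The calls then split into 1622 higher and 5081 lower genes, against 2944 and 2756. All changes of the members shifted down by a similar amount. Sox10 turned to -0.71 (adjusted p 0.152), Sox8 reached -1.86 (adjusted p 0.0103) and Sox6 -1.84 (adjusted p 0.0417), while Sox9 was at -3.10 and Sox5 at -2.84. In RPM, Sox9 was 204 and 181 in WT and 16 and 31.3 in KO, and Sox10 was 97.7 and 85.3 in WT and 39.2 and 79.6 in KO.

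**Figure D3:**
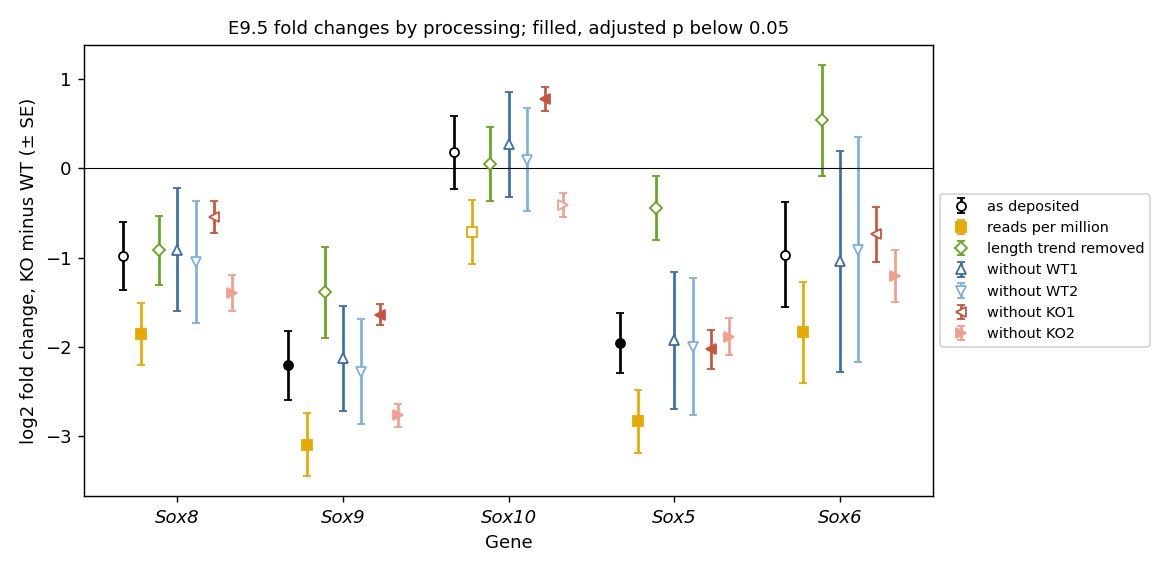
Log2 fold change of each gene at E9.5 with its SE (vertical axis) in the deposited values, on reads-per-million, with the length trend removed and with each library left out. Filled symbols passed an adjusted p of 0.05 by limma. Sox9 stayed negative in all 7 settings, from -3.10 to -1.39, while Sox10 took both signs.

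The ratio of Sox9 to Sox10 within a library does not depend on the scaling. In normalised values it was 2.09 and 2.12 in the E9.5 WT libraries and 0.409 and 0.393 in the KO libraries. The replicates were nearly equal and the groups did not overlap. The ratio still compares a transcript of 4135 bases with one of 2780 bases, so the length trend touches it. At E8.5 the ratio was 1.1, 0.821 and 2.06 in WT1 to WT3 and 1.2, 1.18, 2.46 and 0.795 in KO1 to KO4. The groups overlapped there, and the highest ratios were again in WT3 and KO3. At E7.5 the ratio rested on 1 to 6 Sox10 reads per library and was not read.

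Per kilobase of transcript the SoxE genes could be set side by side. In E9.5 WT cells Sox9 made up 51.3% and 51.6% of the summed SoxE level, Sox10 36.6% and 36.1%, and Sox8 12.2% and 12.3%. In KO cells Sox10 made up 69.3% and 71.5%, Sox9 19.1% and 18.9%, and Sox8 11.7% and 9.58%. Sox9 was the leading SoxE transcript in both WT libraries and Sox10 in both KO libraries. In E8.5 cells Sox9 took 35.2% to 57.6% in WT and 33.2% to 62.1% in KO, and Sox8 at most 4.66%. The shares are a description within each library and were not tested. Dividing by transcript length does not remove the length trend that separated the E9.5 genotypes, so that trend touches the shares as well.

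**Figure D4:**
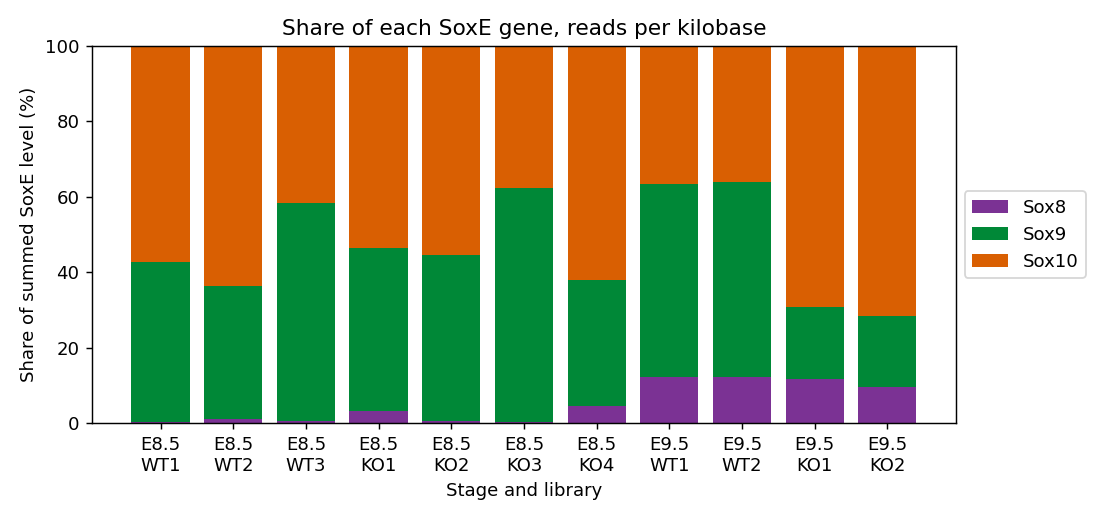
Share of Sox8, Sox9 and Sox10 in the summed SoxE level per kilobase (vertical axis, percent) in each E8.5 and E9.5 library (horizontal axis). Sox9 held about the same share in both E9.5 WT libraries (51.3% and 51.6%) and a smaller one in both KO libraries (19.1% and 18.9%). The length trend was not removed from these values.

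Across stages only levels were described, because each stage was normalised separately. In reads-per-million per kilobase, Sox9 was the highest member at E7.5, at 0.531 ± 0.118 in WT (SD, n = 2). At E8.5 Sox10, at 28.4 ± 1.88, and Sox9, at 24.8 ± 10.5 (SD, n = 3 WT), did not differ beyond their spread. Sox5 followed at 1.55 ± 0.564, and Sox6 (0.426 ± 0.158) and Sox8 (0.374 ± 0.168) overlapped. At E9.5 the order in WT was Sox9 (46.5 ± 3.86), Sox10 (32.9 ± 3.16), Sox8 (11.1 ± 0.859), Sox5 (4.05 ± 0.183) and Sox6 (0.626 ± 0.0365; SD, n = 2), with no overlap between neighbours. In E9.5 KO libraries Sox10 led at 21.4 ± 10.3, and Sox9 (5.72 ± 2.61) and Sox8 (3.11 ± 1.03) came next, with Sox9 at 3.88 to 7.56 and Sox8 at 2.37 to 3.84. Sox8 averaged 0.374 in WT Wnt1-Cre+ cells and 11.1 in WT Sox10+ cells. The populations were sorted by different markers, so stage and sort cannot be told apart. The length trend was not removed from these levels.

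**Figure D5:**
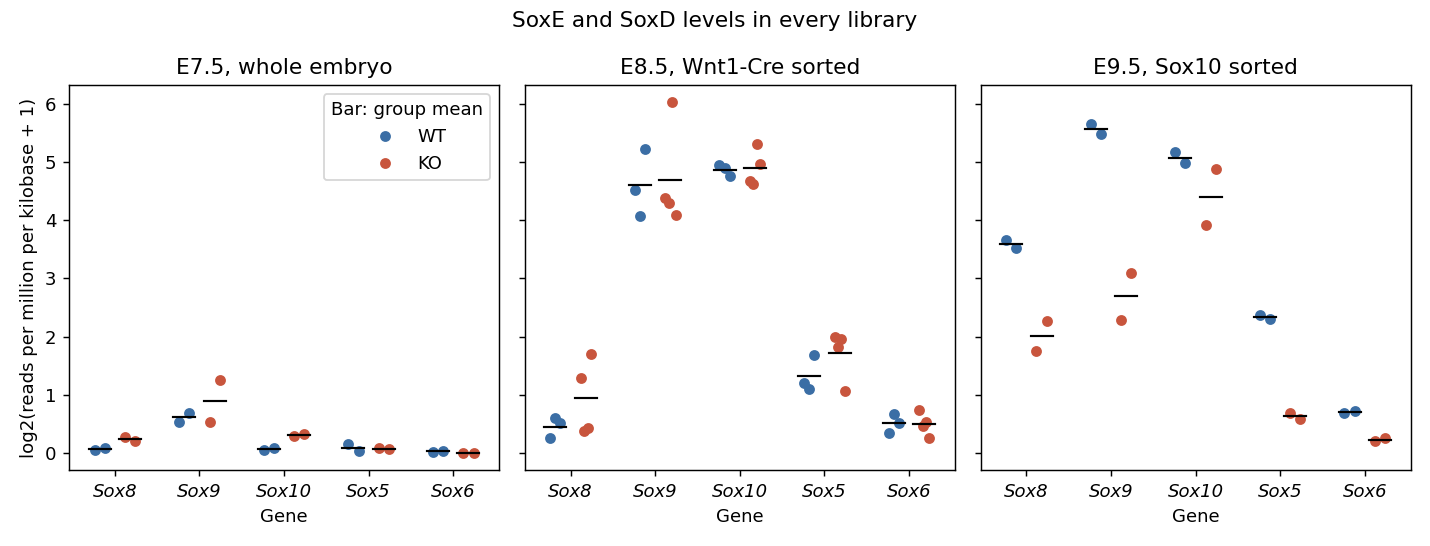
Level of each gene as log2(reads-per-million per kilobase + 1) (vertical axis) in every library, by stage, with WT in blue, KO in red and a bar at the group mean. At E7.5 Sox9 was low and the other genes near 0, the genotypes overlapped for each gene at E8.5, and at E9.5 Sox8, Sox9, Sox5 and Sox6 lay lower in both KO libraries than in both WT libraries.

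Likeness was read over the 15 libraries. Considering the 10007 genes that averaged 5 RPM or more, those with the highest Pearson r to Sox10 in log2(RPM + 1) were Tfap2b (0.989) and Pax3 (0.988). Those of Sox9 were Mest (0.969), Pax3 (0.961) and Sox5 (0.96). Those of Sox8 were Prrx1 (0.964), Cd248 (0.948) and Nkd2 (0.935), of which Prrx1 is a marker of crest mesenchyme. Those of Sox5 were Prkar2b (0.973), Mef2c (0.964) and Ednra (0.964), and those of Sox6 were Sox5 (0.958), Mest (0.948) and Nrep (0.947). Among the members, Sox8 was the least like the others, with r of 0.513 to 0.573, against 0.897 to 0.96 for the other pairs. The libraries share stage, sort and length trend, so these values describe the libraries.

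Genes that the SoxE and SoxD factors are known to act on were read from the same fits. Of 15 cartilage genes downstream of Sox9, Sox5 and Sox6, 9 were tested at E9.5, of which 4 fell, 0 rose and 5 did not pass, where 23% of all tested genes fell. The median log2 fold change was -1.52 against -0.14 over all genes. Col9a1, a collagen of cartilage, fell from 591 ± 83 to 89.8 ± 7.6 (SD, n = 2), a log2 change of -2.70 (SE 0.27, limma adjusted p 0.00192). Col2a1, the main cartilage collagen, fell from 1785 ± 379 to 293 ± 128, and Hapln1, a link protein of cartilage matrix, from 660 ± 218 to 54.2 ± 38.2. These 3 were also called with the length trend removed, at -2.05 (limma adjusted p 0.0131), -1.41 (adjusted p 0.0138) and -2.36 (adjusted p 0.0199). There 24.1% of all genes were called in either direction, with 1291 of 11578 called lower. Sox9 and Sox5 themselves were not called in that setting. With 1 WT library left out the list had few calls: 0 rose and 1 fell without WT1, where 9.22% of all genes were called, and 0 rose and 0 fell without WT2, where 6.62% were called, with Col2a1 at -2.88 (adjusted p 0.0434) and -2.44 (adjusted p 0.0702). Without KO1 1 rose and 6 fell, where 72.5% of all genes were called, and without KO2 0 rose and 4 fell, where 59.8% were called.

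Of 22 genes downstream of Sox10 in crest derivatives, 15 were tested at E9.5, of which 3 rose, 4 fell and 8 did not pass, with a median of 0.33 against -0.14. That count is near the 47.5% called over all tested genes and says nothing particular about the list. Fabp7, a fatty acid binding protein of early glia, rose from 114 ± 29.6 to 952 ± 288, a log2 change of 3.04 (SE 0.34, limma adjusted p 0.00252). Ednrb, the endothelin receptor of migrating crest, fell from 478 ± 129 to 73.7 ± 15.2, a change of -2.67 (SE 0.35, adjusted p 0.00382). Ret, the receptor needed by enteric crest, had 115 and 29.3 in WT and 0 reads in both KO libraries (limma adjusted p 0.0108). Against 3 reads over the KO group its WT mean was at least 37-fold higher. Erbb3, a receptor of migrating crest and glia, chosen here after its values were seen, fell from 192 ± 37.1 to 40.6 ± 26.2 (limma adjusted p 0.0234). With the length trend removed Fabp7 was at 0.67 (limma adjusted p 0.141) and Ednrb at -1.87 (adjusted p 0.0211). Ret then had a limma adjusted p of 0.0482 and Erbb3 was at -0.94 (adjusted p 0.155). There 0 of the 15 rose and 2 fell, where 24.1% of all genes were called in either direction. Without WT1 or without WT2 1 of the 15 rose and 0 fell, and Ednrb (adjusted p 0.0897 and 0.0698), Ret (0.231 and 0.125) and Erbb3 (0.166 and 0.258) were not called, while without KO1 or KO2 4 rose, and 4 and 6 fell.

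Of 22 crest specifier factors 18 were tested, of which 3 rose, 4 fell and 11 did not pass, with a median of -0.48, a smaller share of calls than the 47.5% over all tested genes. With the length trend removed 0 rose and 5 fell, where 24.1% of all genes were called in either direction. Id3 rose by 1.97 on the log2 scale (limma adjusted p 0.00106). Ets1 fell by 2.31 (adjusted p 0.00239) and Mycn fell by 1.28 (adjusted p 0.00589), and both were also called without the length trend, at -1.06 (adjusted p 0.0482) and -1.50 (adjusted p 0.0114), where Id3 was at 0.19 (adjusted p 0.362). Mycn was not called without WT1 or WT2 (adjusted p 0.0676 and 0.113), nor Ets1 without WT2 (adjusted p 0.0808), and the list then had 1 higher gene and 1 or 0 lower. Of 14 other Sox genes 8 were tested and 3 fell, where 23% of all tested genes fell. The 3 were Sox13, another SoxD gene, and Sox4 and Sox12 of the SoxC family. Sox13 fell from 354 ± 43.2 to 63.5 ± 37.6, a log2 change of -2.59 (SE 0.50, limma adjusted p 0.0116), and was at -2.03 (adjusted p 0.0587) without the length trend, where Sox4 was at -0.03 and Sox12 at -0.20. Of these 8 genes 0 were called without WT1 or WT2. None of these lists had a called gene at E7.5 or E8.5 by limma.

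The labelled cell types were read from summed marker lists. In the deposited values migratory crest and early glia markers summed to 2017 to 3178 in the E8.5 libraries. At E9.5 they summed to 2923 and 2882 in WT and to 1091 and 2077 in KO. Each stage was normalised separately, so these sums are not compared between stages. In RPM these markers gave 168 to 374 at E8.5, and 395 and 384 in WT and 83.7 and 142 in KO at E9.5. The deposited sums of crest mesenchyme markers overlapped at E9.5, at 5287 and 5961 in WT and 6783 and 4767 in KO. In RPM, which lowers the KO values, they gave 715 and 795 in WT against 520 and 326 in KO. The sums hide differences between these 10 genes, of which 8 had negative changes. By limma 1 was called higher and 4 lower, where 23% of all tested genes were called lower. With the length trend removed 0 were called higher and 4 lower. The next 3 sums are again deposited values and not RPM. Otic markers, of tissue that also expresses the SoxE genes, gave 763 and 720 in WT against 333 and 182 in KO. Erythroid markers gave 8.1 and 18.7 in WT, 273763 in KO1 and 299 in KO2 (20998 and 20.5 RPM in KO1 and KO2). Endoderm markers gave 34.4 and 32.3 in WT against 520 and 976 in KO. The part of these other cells in the Sox values was not tested.

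Neighbouring and overlapping genes were checked because the libraries carry no strand. The antisense gene 2810468N07Rik overlaps one end of Sox8, where reads of the pair cannot be told apart, and had 98.2 and 72.2 in E9.5 WT and 201 and 139 in KO, the opposite order to Sox8. At E8.5 it was highest in KO4 (74.2) and KO1 (51.7), the libraries with the most Sox8. Sox5os3, antisense to Sox5, had at most 1 read in any library. BC006965, which lies next to Sox9, had 2 and 6 reads in E9.5 WT and 0 in both KO libraries. Polr2f, the gene beside Sox10, had 2989 and 2563 in E9.5 WT and 18374 and 20174 in KO, while Sox10 overlapped between genotypes. The length trend that separated the E9.5 genotypes was not removed from these values.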

How the data were processed

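RNA came from whole E7.5 embryos or cells sorted into Trizol-LS, and libraries were made with SMART-Seq v4, which primes on poly(A) and keeps no strand, and Nextera XT, per the labels' protocols. FastQC 0.11.5 and alignment by STAR 2.7.0f to mm10 are named in the submitters' processing notes. The sources used here do not name the read counter, annotation or normaliser. For each stage the authors deposited a table of normalised signal (gene counts divided by 1 factor per library). The authors' deposited tables of selected genes give a mean signal, a log2 fold change, its standard error and test score, and p-values, per the file headers. Whole reads were recovered for 100% of values within 0.01 of a read.

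Groups came from the sample titles. Each stage was fitted alone on log2(value + 1) for genes with a mean of at least 10, by limma 3.58.1 (trended empirical Bayes, two-sided, R 4.3.3), with Benjamini-Hochberg adjustment over all genes at 0.05. Alternatives on the recovered reads were edgeR's quasi-likelihood test (version 4.0.16) and DESeq2 (version 1.42.0). Further alternatives were pseudocounts 8 and 0.1, minimum means 100 and none, a threshold of 0.1, quantile, TMM and reads-per-million scaling, a replicate block, code numbers, a loess trend over transcript length (span 0.3) removed per library, and each library left out. The scripts were tested on simulated data. Lengths, 3′UTRs and coordinates came from GENCODE M21 (GRCm38), and 95.8% of symbols had a length. Read intervals are 95% exact Poisson or binomial intervals, and 3 reads, the limit for a count of 0, are worth 0.202 to 0.611 RPM (reads-per-million).

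The 5 genes and the 17 gene lists were chosen with earlier results of these data known. Named genes were the members, of the lists described up to 3 genes with the smallest unadjusted p, the 3 genes most like each member, neighbours, and markers that moved with a member. A gene that this rule named is not reported here. Lists of which only sums are given are markers of other cell types.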

Additional observations from a re-analysis of the deposited data

Results flagged for a closer look

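Sox9 in the E8.5 library KO3 stood far from the other 3 KO libraries: the gap to the nearest was 0.927 of the range of the group, above Dixon's 95% critical value for 4 samples. Chance flags about 1 in 20 groups, and the 5 genes were each examined in the E8.5 KO group. Sox8 was higher in both KO libraries at E7.5 and lower in both at E9.5. At E7.5, where Sox8 was too low to be tested, 28.7% of tested genes did not overlap in either direction. At E9.5 both KO libraries were lower for 41.7% of tested genes. The Sox8 difference of log2(mean + 1) was 1.24 at E7.5 and -0.92 at E9.5. The E7.5 value rested on 2 WT and 7 KO reads, with a 95% counting interval of the ratio of 0.732 to 37.9. The difference between the stages was not tested, and the material differed between them.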

How the results depend on the processing

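Of 248 alternative values of the genes called and the log2 fold changes of the members, 199 kept their direction and their side of the threshold (for counts, within 1.5 times). With each library left out in turn 0 to 39 genes were called at E7.5, 0 to 3 at E8.5 and 794 to 8694 at E9.5. The log2 fold change of Sox9 then ran from -0.25 to 1.36 at E7.5, from -0.42 to 0.12 at E8.5 and from -2.77 to -1.64 at E9.5. Sox10 ran from -0.32 to -0.01 at E8.5 and from -0.41 to 0.78 at E9.5, Sox8 from 0.40 to 1.41 and from -1.40 to -0.55, Sox5 from 0.26 to 0.70 and from -2.03 to -1.89, and Sox6 from -0.51 to 0.09 and from -1.21 to -0.74. DESeq2 called 31 genes at E7.5 and 28 at E8.5, and the libraries of code number 239 alone gave 18 genes and -0.25 for Sox9 at E7.5. At E8.5 Sox9, at -0.06, became 0.00624 with quantile normalisation, 0.09 on reads-per-million, 0.10 by edgeR, 0.06 by DESeq2 and 0.25 without KO1 and KO2, none called. Sox10 at E8.5 became 0.02 on reads-per-million, 0.06 without KO1 and KO2 and 0.05 once a block set code numbers 163 and 169 against the others. KO4 against WT2 alone gave -0.19 for Sox5 and -1.68 for Sox6. At E9.5 removing the length trend left 2785 genes called and gave -1.39 for Sox9, -0.44 for Sox5 and 0.54 for Sox6. Reads-per-million scaling gave -1.86 for Sox8, -0.71 for Sox10 and -1.84 for Sox6. The cause of these shifts was not tested. A minimum mean of 100 left no value for Sox9 at E7.5, for Sox8 and Sox6 at E8.5 or for Sox6 at E9.5.

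The replicate numbers did not pair the samples: same-numbered deviations correlated at -0.116 (E7.5), 0.0759, -0.0248 and 0.554 (E8.5), and -0.171 (E9.5). With the replicate number as a block 47 genes were called at E7.5, and the E8.5 and E9.5 counts were 678 and 5722, and Sox9 and Sox6 at E8.5 became 0.10 and 0.03. KO4 has no WT partner in that block. The block changed no call of a member. The crossed numbers as a block, chosen after seeing the data, gave 48 genes at E7.5 and 6665 at E9.5. Depth limited Sox8, Sox10, Sox5 and Sox6 at E7.5, with 0 to 7 reads per library, and 2 libraries per genotype limited E7.5 and E9.5.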
